A study of Chlorocebus sabaeus with 45 samples.

Results

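The Toll-like receptor genes and the gene of their shared adaptor were followed in the blood of vervet monkeys (Chlorocebus sabaeus) that were moved from the wild into individual housing. The set was chosen by gene symbol: TLR1, TLR2, TLR4, TLR5, TLR6, TLR7, TLR8, TLR9, TLR10 and MYD88, 10 names in all, among the 33994 gene rows measured. A row was found by symbol for 8 of them. TLR2 was found by its gene ID, in a row listed as LOC103236415 that RefSeq names TLR2. No row was matched to TLR9, which was not analysed here. The 9 genes analysed were thus 8 receptors and MYD88.

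Whole blood RNA was sequenced from 15 juvenile males on day 0, day 3 and day 14, which gave 45 libraries, 15 on each day and 3 from each animal. The days are those of each sample's labels, and other descriptions of the study differ from them for both later samplings. Every animal was wild-born on St. Kitts and came from a troop of its own, and the samples include no control group kept in parallel. On day 0 blood was taken in the field soon after trapping under ketamine and xylazine. On day 3 and day 14 it was taken in the quarantine facility under dexmedetomidine and midazolam, so that time in individual housing, place and sedative cannot be told apart in either comparison with day 0. The question was how gene expression in blood changed with relocation and social isolation, over a short exposure (day 3) and a longer one (day 14).

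Toll-like receptors are membrane proteins that recognise molecules typical of microbes. TLR1, TLR2, TLR4, TLR5, TLR6 and TLR10 sit at the cell surface and meet lipoproteins, lipopolysaccharide and flagellin, whereas TLR7 and TLR8 sit in endosomes and detect single-stranded RNA. Most of these receptors signal through MYD88, which gathers IRAK kinases and the ubiquitin ligase TRAF6 and so switches on NF-kB and interferon regulatory factors. In blood TLR2, TLR4, TLR5 and TLR8 are known mainly from neutrophils and monocytes, TLR10 from B cells, and TLR7 from plasmacytoid dendritic cells and B cells.

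The libraries held 13216275 to 31469332 fragments on genes, and the day medians were 22963964, 22754349 and 22758493. The 20 most abundant genes of a library took 10.8% ± 3.54 on day 0, which rose to 14.4% ± 5.48 by day 3 and to 23.1% ± 6.60 by day 14 (SD, n = 15 each). Levels are given as FPKM, fragments per length of gene and per depth of the library, after trimmed-mean (TMM) scaling between libraries, and are called scaled FPKM. Changes are log2 fold changes of the later against the earlier day within animals, fitted by limma over 18753 genes, and a gene was called where its Benjamini-Hochberg adjusted p was under 0.05. At the deposited depth TLR4 was counted from 3859 to 60037 fragments a library, but TLR7 from only 30 to 376, which limits what can be said of TLR7.

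Most receptor genes were lower on day 3 and on day 14 than on day 0, and MYD88 and TLR7 were not called on either day. By day 3, TLR1, TLR2, TLR4, TLR5, TLR6, TLR8 and TLR10 (7 of the 9) were down-regulated and none was up-regulated, with a median log2 fold change of -0.79 over the 9. Among all genes tested 19.6% were called in this comparison, 10.3% up and 9.26% down, and their median was 0.01. On day 14 vs. day 0 the same 7 genes were down-regulated and none was up-regulated, with a median of -0.92. The background was wider there, with 44.3% of all genes called, 23.2% up and 21.1% down, around a median of -0.02. On day 14 vs. day 3 only TLR10 was called, down, where 24% of all genes were called, 14.2% up and 9.85% down. The other 8 had log2 fold changes between -0.35 (TLR4, SE 0.23, adjusted p 0.2671) and 0.00 (TLR7, SE 0.15, adjusted p 0.9928) between those days. In 10 of the 15 animals all 7 of these receptors were lower on day 3 than on day 0, and in 13 animals all 7 were lower on day 14 than on day 0. The comparisons of day 3 and day 14 with day 0 share their day 0 samples and are not independent of each other.

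**Figure D1:**
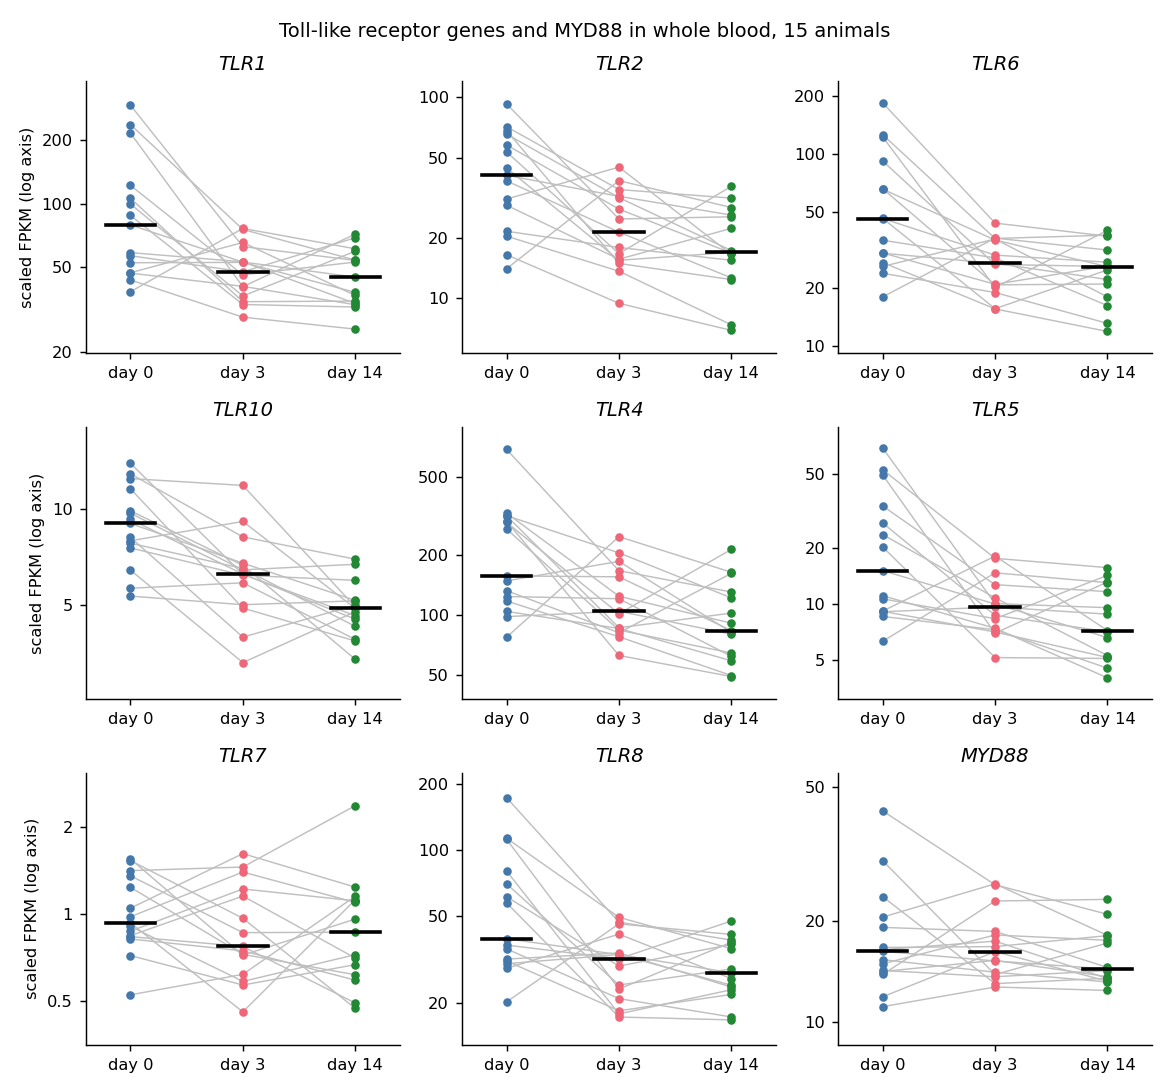
Scaled FPKM (log axis, a range of its own in each panel) of the 8 receptor genes and MYD88 on day 0, day 3 and day 14. Points are the 15 animals, grey lines join the samples of an animal and black bars are medians; the TLR1 median went from 79.3 to 47.7 and 45.03, while that of MYD88 went from 16.2 to 16.2 and 14.3.

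In bulk blood, fewer cells of a type and less RNA per cell cannot be told apart, and markers of neutrophils moved with the receptors. Of 12 neutrophil markers, 11 were called down on day 3 and all 12 on day 14 vs. day 0, beside 9.26% and 21.1% of all genes. The median log2 fold changes of the 12 markers were -1.13 and -1.38. Their summed level ran from 379 to 5111 scaled FPKM on day 0 (median 711), from 181 to 1040 on day 3 (median 517) and from 151 to 908 on day 14 (median 438). The sum was lower than on day 0 in 12 animals on day 3 and in 13 on day 14. The exceptions were animals 3, 5 and 6 on day 3 and animals 1 and 5 on day 14, and these are also the animals in which TLR1, TLR4 and TLR5 were higher than on day 0. TLR8 was higher in these and in animal 12 on day 3. TLR2 and TLR6 were higher in animals 3 and 5 on day 3 and in animal 5 on day 14, and TLR10 in animals 3 and 10 on day 3 and in no animal on day 14. Of 9 monocyte markers, 3 were called up and none down on day 3 (median 0.11), beside 10.3% of all genes up. By day 14, 1 was up and 3 were down (median 0.16), beside 23.2% and 21.1%. The monocyte sum was lower than on day 0 in 7 animals on day 3 and in 8 on day 14. The marker lists were chosen with earlier results of these data known. The part of neutrophil number, of RNA per neutrophil or of monocytes in the receptor changes was not tested.

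The receptor complexes built around TLR2 came first. TLR2 pairs with TLR1 to recognise triacylated lipoproteins and with TLR6 to recognise diacylated ones. TLR10 is a close relative of both partners whose ligands are less well known. In RefSeq the genes TLR6, TLR1 and TLR10 lie next to each other. How fragments that match more than 1 of these related genes were assigned is not given in the sources used here, so the split between TLR1, TLR6 and TLR10 carries that uncertainty.

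TLR2 ranged from 14.0 to 92.6 scaled FPKM on day 0 (median 40.9), from 9.44 to 44.9 on day 3 (median 21.3) and from 6.92 to 36.1 on day 14 (median 16.9). The highest day 0 sample was that of animal 11 and the lowest that of animal 5, and the days overlapped, although 9 day 0 samples lay above every day 14 sample. TLR2 was 1.75-fold lower on day 3 (log2 fold change -0.81, SE 0.20, adjusted p 0.004136, lower in 13 animals). By day 14 it was 2.18-fold lower than on day 0 (-1.12, SE 0.20, adjusted p 2.865e-05), and lower in 14 animals, all but animal 5.

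TLR1 was the more abundant partner. Its day 0 levels ran from 38.5 to 291 scaled FPKM around a median of 79.3, against 29.2 to 76.4 on day 3 (median 47.7) and 25.6 to 71.8 on day 14 (median 45.03). Of the day 0 samples, 8 exceeded every sample of either later day, and animals 11, 15 and 7, the highest on day 0, were above 200 scaled FPKM. TLR1 fell 1.77-fold by day 3 (-0.83, SE 0.19, adjusted p 0.003452) in 12 animals. Its fall by day 14 was 1.89-fold (-0.92, SE 0.19, adjusted p 0.0002945) and was seen in 13 animals, the exceptions being animals 1 and 5.

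TLR6 had a similar shape at a lower level. On day 0 it spanned 17.96 to 185 scaled FPKM (median 46.0), on day 3 15.5 to 43.6 (median 26.85) and on day 14 11.8 to 39.9 (median 25.8). The same 8 animals that stood above all later TLR1 values on day 0 stood above all later TLR6 values. The log2 fold change of TLR6 was -0.91 on day 3 (SE 0.19, adjusted p 0.001457, 13 animals) and -1.05 on day 14 (SE 0.19, adjusted p 5.363e-05, 14 animals), or 1.88-fold and 2.07-fold lower.

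TLR10 was the least abundant of the surface receptors and the only member called between day 3 and day 14. It lay between 5.34 and 13.9 scaled FPKM on day 0 (median 8.995), between 3.31 and 11.8 on day 3 (median 6.25) and between 3.39 and 6.96 on day 14 (median 4.88). Day 0 and day 14 overlapped less for it than for the other 8 genes, since 12 of the 15 day 14 samples lay below the lowest day 0 sample. TLR10 was 1.41-fold lower on day 3 than on day 0 (-0.50, SE 0.12, adjusted p 0.003225, 13 animals) and 1.80-fold lower on day 14 (-0.85, SE 0.12, adjusted p 1.372e-06), in all 15 animals. It was also lower on day 14 than on day 3 (-0.35, SE 0.12, adjusted p 0.03099) in 11 animals. This last call was lost without the replicate block of animals (adjusted p 0.0820), with RNA integrity added as a covariate (adjusted p 0.173) and when any of animals 2, 3, 8, 9 or 12 was left out (adjusted p 0.0519 to 0.0954). In the same comparison 6 of 10 B cell markers were called down (median log2 fold change -0.57), and their summed level was lower in 14 animals, with day medians of 386 and 264 scaled FPKM. Of 9 monocyte markers 4 were called down (median -0.34), with a sum lower in 14 animals and day medians of 395 and 312. Of all genes 9.85% were called down between these days. Between these days TLR10 was higher in animals 1, 5, 7 and 13, and the B cell and monocyte sums were higher in animal 10 only. On day 3 vs. day 0, where TLR10 was also called down, none of the 10 B cell markers was called (median 0.22). Of the 9 monocyte markers 3 were called up there (median 0.11), beside 10.3% of all genes. The part of B cells or monocytes in the TLR10 change was not tested.

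TLR4, the lipopolysaccharide receptor, was the most abundant receptor gene on every day. Its levels were 77.4 to 686 scaled FPKM on day 0 (median 158), 62.6 to 249 on day 3 (median 105) and 49.0 to 215 on day 14 (median 83.5). Animal 11 on day 0 stood far above the rest, and 7 day 0 samples lay above every later sample, while the other 8 overlapped the later days. TLR4 was 1.66-fold lower on day 3 (-0.73, SE 0.23, adjusted p 0.02172), in 12 animals. Of the day 3 calls this was the weakest: it was lost without the replicate block (adjusted p 0.0507), without animal 2 (0.0554) and without animal 11 (0.0565). By day 14 the difference was 2.11-fold (-1.08, SE 0.23, adjusted p 0.0002839), in 13 animals.

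TLR5, which recognises bacterial flagellin, was 1 of the 4 genes, with TLR2, TLR4 and TLR6, at less than 0.5 of their day 0 level by day 14 in the fit. It ran from 6.32 to 68.6 scaled FPKM on day 0 (median 15.1), from 5.17 to 18.1 on day 3 (median 9.65) and from 4.02 to 15.7 on day 14 (median 7.22). The day 0 range was wide, since animals 11, 15 and 7 were near or above 50 scaled FPKM and animal 5 was the lowest. TLR5 was 1.83-fold lower on day 3 (-0.87, SE 0.24, adjusted p 0.00923, 12 animals) and 2.22-fold lower on day 14 (-1.15, SE 0.24, adjusted p 0.0002155, 13 animals).

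The endosomal receptors TLR7 and TLR8, which are neighbours in RefSeq, gave different calls: TLR8 was called on each later day and TLR7 on neither. TLR8 ranged from 20.3 to 173 scaled FPKM on day 0 (median 39.4), from 17.3 to 49.3 on day 3 (median 31.9) and from 16.8 to 47.4 on day 14 (median 27.55). Its highest day 0 samples were those of the same 7 animals as for TLR4 and TLR5. TLR8 was 1.73-fold lower on day 3 (-0.79, SE 0.20, adjusted p 0.005847, 11 animals) and 1.78-fold lower on day 14 (-0.83, SE 0.20, adjusted p 0.001097, 13 animals).

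TLR7 was near 1 scaled FPKM throughout. It lay between 0.526 and 1.55 on day 0 (median 0.930), between 0.459 and 1.62 on day 3 (median 0.772) and between 0.472 and 2.37 on day 14 (median 0.865). The 3 days overlapped, and no day 0 sample lay above all later ones. Its log2 fold change was -0.18 on day 3 (95% CI -0.49 to 0.13, adjusted p 0.4388) and -0.18 on day 14 (95% CI -0.49 to 0.13, adjusted p 0.3525), with 9 animals lower and 6 higher each time. The interval leaves room for a fall of 0.49, so a moderate change was not detectable rather than absent. Of the 5 plasmacytoid dendritic cell markers with a row, 2 were called up on day 3, and 3 up and 1 down on day 14. Their summed level was low, at medians of 11.7, 13.7 and 11.2 scaled FPKM on the 3 days. Of all genes, 10.3% were called up on day 3, and 23.2% up and 21.1% down on day 14. Among 10 B cell markers none was called on day 3, and 4 were down on day 14. The part of either cell type in the TLR7 values was not tested.

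MYD88, the adaptor, was called in none of the comparisons. It lay between 11.1 and 42.4 scaled FPKM on day 0 (median 16.2), between 12.7 and 25.7 on day 3 (median 16.2) and between 12.4 and 23.1 on day 14 (median 14.3). Animals 15 and 7 were above every day 3 sample on day 0, and the rest of the samples overlapped. The log2 fold change was -0.06 on day 3 (95% CI -0.27 to 0.15, adjusted p 0.7497), with 7 animals lower and 8 higher, and -0.17 on day 14 (95% CI -0.38 to 0.04, adjusted p 0.191), with 10 lower and 5 higher. Leaving out animal 14 gave -0.26 on day 14 with an adjusted p of 0.0345. Without scaling between libraries, MYD88 and TLR7 were called down on day 14 too, at -0.59 and -0.56, where the median of all genes was itself -0.36.

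**Figure D2:**
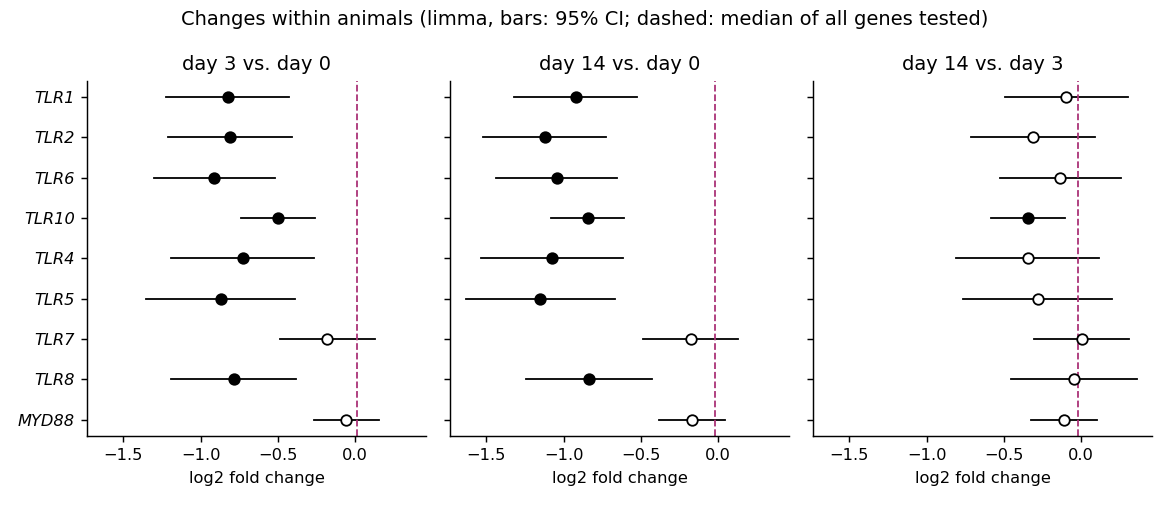
Log2 fold change of each gene in the 3 comparisons, with its 95% confidence interval from limma (15 animals). Filled points had an adjusted p under 0.05 and the dashed line is the median of all 18753 genes tested; on day 14 vs. day 0 the 7 filled receptors lie between -1.15 and -0.83, and TLR7 and MYD88 at -0.18 and -0.17.

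Whether the receptors fell more than MYD88 was tested with the ratio of the genes within a sample, from deposited FPKM plus 0.1 on the log2 scale. A plain ratio does not depend on scaling between libraries. The added 0.1 leaves some dependence, most for TLR7, which is near 1 FPKM. These ratio tests were chosen after the values had been seen, and 45 were made, each a two-sided exact sign-flip permutation test over the 15 animals with adjustment over the 45. By day 14 the ratio to MYD88 was lower for all 7 receptors. The changes ran from -0.67 for TLR8 (SD 0.71, 13 animals, adjusted p 0.01394) to -0.98 for TLR5 (SD 0.92, 12 animals, adjusted p 0.01394). On day 3 it was lower for 6 of them, and for TLR4 the change was -0.67 (SD 1.03, 11 animals, adjusted p 0.05336). The ratio of TLR7 to MYD88 changed by -0.12 on day 3 (SD 0.77, adjusted p 0.6011) and by 0.03 on day 14 (SD 0.94, adjusted p 0.9088).

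The ratios to TLR7 gave fewer calls. On day 3 none of the 7 receptor to TLR7 ratios passed, at adjusted p from 0.06844 to 0.1513. On day 14, 6 of them did, with TLR10 the clearest (-0.71, SD 0.48, lower in 14 animals, adjusted p 0.005493), and TLR8 did not (-0.70, SD 1.08, 11 animals, adjusted p 0.05456). Between day 3 and day 14 themselves the change passed for TLR10 alone (-0.38, SD 0.48, 11 animals, adjusted p 0.02294), and the other 6 had adjusted p from 0.05577 to 0.6011, so a difference between the later days was not shown for them. The TLR10 to MYD88 ratio did not pass between these days (-0.23, SD 0.43, 10 animals, adjusted p 0.0923), nor did that of any other receptor to MYD88.

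The 8 receptors were also summed, and each was taken as a share of that sum, which no scaling between libraries can change. The sum had a median of 409 scaled FPKM (181 to 1511) at day 0, which went to 253 (162 to 466) by day 3 and 211 (129 to 420) by day 14. TLR4 made up 43.2%, 44.4% and 40.9% of it at the median of each day. TLR1 followed with medians of 18.5%, 17.7% and 19.6%, and TLR7 stayed under 1% of the sum in every library. The ranges of the 3 days overlapped for each of the 8 shares, and changes of shares were not tested. These shares compare levels per length of gene. The row used for TLR2 has an implied length of 10592 bases, against 2873 to 5476 for the other genes, so its FPKM and its place among the receptors rest on that long gene model.

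**Figure D3:**
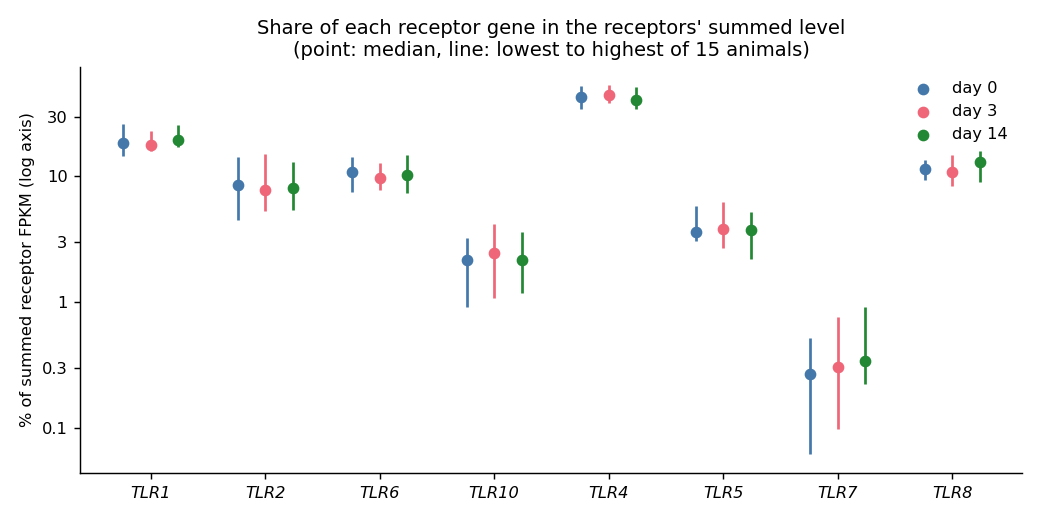
Share of each receptor gene in the summed FPKM of the 8 receptors (%, log axis) on day 0, day 3 and day 14. Points are medians and lines run from the lowest to the highest of the 15 animals; the TLR4 medians were 43.2%, 44.4% and 40.9%, and the ranges of the 3 days overlap for every receptor.

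The order of the mean levels was nearly fixed. On day 0 it was TLR4, TLR1, TLR6, TLR8, TLR2, TLR5, MYD88, TLR10 and TLR7. On day 3 and on day 14 TLR8 stood above TLR6 and MYD88 above TLR5, and the rest kept their places. Of the 24 pairs of neighbours on the 3 days, 20 differed by the two-sided exact sign-flip permutation test on ratios within samples, adjusted over the 24. TLR4 exceeded TLR1 in all 15 animals on each day, by a mean log2 ratio of 1.19, 1.28 and 1.03, with the smallest p that 15 animals allow (6.104e-05). The neighbours that did not differ beyond their spread were TLR6 and TLR8 (adjusted p 0.466) and TLR5 and MYD88 (0.887) on day 0, TLR8 and TLR6 on day 3 (0.138), and TLR2 and MYD88 on day 14 (0.2925).

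The receptors also varied together from sample to sample. After the mean of each day and of each animal was taken out, Pearson's r of the log2 values over the 45 libraries lay between 0.72 and 0.94 for every pair among TLR1, TLR2, TLR4, TLR5, TLR6 and TLR8. TLR10 was less close to these 6, at 0.42 to 0.68. With these 7 receptors MYD88 ran from 0.09 (TLR2) to 0.59 (TLR1), and TLR7 from -0.21 with MYD88 to 0.49 with TLR10. These values describe libraries that share their depth, scaling and cell make-up between genes, and no test was attached to them.

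The spread between animals was itself widest on day 0 for most receptors. The SD of the log2 level of TLR1 was 0.94 at day 0 and 0.43 and 0.45 on the later days, and that of TLR5 was 1.09, 0.51 and 0.64. The exceptions were TLR10, at 0.41, 0.44 and 0.28, and TLR7, at 0.40, 0.49 and 0.55. Animal 11 held the highest day 0 value of each receptor, and animal 5 the lowest of every receptor but TLR7. In animal 5, 6 of the 7 receptors were higher on day 3 and on day 14 than on day 0. In animal 3 all 7 were higher on day 3, and none was on day 14.

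The genes whose pattern was most like each member were taken as the 3 with the highest Pearson's r over the 45 libraries, among 12958 genes with a mean of at least 1 FPKM. Day and animal means were not taken out here, so these values also hold differences between days that genes share. For TLR1 these were TLR8 (0.96), EMB (0.95) and ACSL4 (0.95). For TLR8 they were RP2 (0.97), TLR1 (0.96) and the interferon-gamma receptor gene IFNGR1 (0.96), and for TLR6 OGFRL1 (0.96), C5H16orf72 (0.95) and EMB (0.94). For TLR5 they were TLR1 (0.93), the Fc receptor gene FCGR2A (0.93) and TLR8 (0.93). The closest genes thus included other members for TLR1, TLR5 and TLR8.

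For TLR4 the closest genes were FCGR2A (0.93), RNF13 (0.93) and IGSF6 (0.93). For TLR2 they were STEAP4 (0.94), KCNJ15 (0.93) and CSF3R (0.92), the G-CSF receptor, which is also on the list of neutrophil markers. TLR10 was closest to 2 unnamed rows, LOC103220764 (0.90) and LOC103236133 (0.87), and to RDH5 (0.86), and MYD88 to TADA3 (0.83), RAB7A (0.82) and RHOG (0.81). No gene was close to TLR7, whose highest values were 0.64 for ABCA6, 0.62 for FAM195A and 0.61 for ERO1L.

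Other genes of the pathway were counted by role. Of 52 further genes listed by role, 50 were tested. By day 3, 4 of them were up-regulated and 6 down-regulated around a median log2 fold change of -0.04, which makes 10 of 50 called beside 19.6% of all genes. On day 14 vs. day 0, 3 were up and 19 down around a median of -0.20, or 44.0% called beside 44.3%. Between day 3 and day 14, 2 were up and 11 down around -0.19, or 26.0% called beside 24%, and the median of the 9 receptor and MYD88 genes was -0.14 there. By direction, 38% were down and 6% up by day 14 against day 0, beside 21.1% and 23.2% of all genes, and 22% were down and 4% up between day 3 and day 14, beside 9.85% and 14.2%. By day 3 the shares were 12% down and 8% up, beside 9.26% and 10.3%. Without scaling between libraries the splits were 0 up and 5 down by day 3, 0 up and 42 down by day 14, and 0 up and 40 down between them. Of all 18753 genes, that setting called 1190 up and 1275 down, 1741 up and 9334 down, and 936 up and 8655 down.

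RNA integrity, as listed by the study for each library, was higher on day 14 than at baseline in most animals. With it as a covariate the 22 calls of day 14 vs. day 0 became 10 (1 up and 9 down), and the 13 of day 14 vs. day 3 became 2, both down. Among all 18753 genes, the calls with this covariate were 2445 up and 1703 down, and 1453 up and 442 down. Without it they were 4345 up and 3955 down, and 2658 up and 1848 down. Among the genes named by role, CD14, AP3B1, PELI2, IRAK4, IKBKG, TAB3, IRF7 and RNF216 kept their day 14 call against day 0. LY96, ITGAM, HSP90B1, PIK3AP1, SARM1, IRF5, IRF3, CD180 and IRAK3 lost it, at adjusted p from 0.0583 (PIK3AP1) to 0.396 (SARM1), as did IRAK4 (0.0539) and RNF216 (0.0773) on day 3. The 7 receptors kept their calls against day 0 with this covariate.

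Among 6 tested genes of TLR3 and the co-receptors, 3 were down on day 14 and none was up. For this and the next role lists the share is to be read against the 44.3% of all genes called by day 14 (23.2% up and 21.1% down), and each list is short. CD14, which hands lipopolysaccharide to TLR4, was at 131 ± 70.9 scaled FPKM on day 0, 110 ± 36.4 on day 3 and 70.4 ± 15.2 on day 14 (SD, n = 15 each). Its change was -0.77 on day 14 vs. day 0 (SE 0.16, adjusted p 0.0002308, 12 animals), and on day 3 it was not called (-0.19, adjusted p 0.4321). LY96, the MD-2 subunit of the TLR4 receptor, was down on day 3 (-0.75, SE 0.19, adjusted p 0.006896, 13 animals) as well as on day 14 (-0.68, SE 0.19, adjusted p 0.005167, 12 animals). ITGAM, the CD11b integrin chain, was down on day 14 (-0.74, SE 0.22, adjusted p 0.00607).

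Genes of receptor folding and trafficking gave 1 call in each direction among 6 tested by day 14 (33.3% called). HSP90B1, the chaperone that most Toll-like receptors need for folding, was up (0.38, SE 0.10, adjusted p 0.003531) in 13 animals, opposite to the receptors. AP3B1, a subunit of the AP-3 sorting complex, was down (-0.21, SE 0.08, adjusted p 0.02885). UNC93B1, which carries the endosomal receptors out of the endoplasmic reticulum, had a log2 fold change of -0.02 (adjusted p 0.9498); it is named here after its value was seen.

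Of the 5 adaptors beside MYD88, 2 were down by day 14 (40.0% called). These were PIK3AP1 (-0.42, SE 0.12, adjusted p 0.005028), which links the receptors to PI3-kinase, and SARM1 (-0.36, SE 0.14, adjusted p 0.03271), which was below 1 scaled FPKM. None of the 5 was called on day 3.

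Among 19 kinases and ubiquitin ligases, 7 fell and 1 rose by day 14, against 4 and 2 by day 3, relative to day 0 (42.1% and 31.6% called, beside 44.3% and 19.6% of all genes). PELI2, a Pellino ubiquitin ligase that acts on IRAK complexes, fell the most of this list, from 10.1 ± 5.76 to 5.13 ± 1.47 scaled FPKM (-0.86, SE 0.16, adjusted p 4.725e-05, 14 animals). IRAK4, the first kinase that MYD88 recruits, was down by day 3 (-0.21, SE 0.07, adjusted p 0.03469) and on day 14 (-0.35, SE 0.07, adjusted p 0.0002375, 14 animals). IKBKG, the NEMO subunit of the IKK complex, was down on day 14 (-0.41, SE 0.10, adjusted p 0.001036). TAB3, a partner of the kinase TAK1, was the gene that went up (0.51, SE 0.14, adjusted p 0.003305).

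Of the 4 interferon regulatory factors, 2 were down and 1 was up by day 14. IRF7 was down on day 14 vs. day 0 (-0.75, SE 0.24, adjusted p 0.01178, 12 animals), as was IRF5 (-0.48, SE 0.14, adjusted p 0.007597, 13 animals), both of which act below the MYD88-dependent receptors. IRF3, which acts mainly below TLR3 and TLR4, was up on day 14 (0.16, SE 0.06, adjusted p 0.02372) and on day 3 (0.21, SE 0.06, adjusted p 0.009541).

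Of 10 inhibitors of the pathway, 4 were down and none was up by day 14 (40.0% called). RNF216, a ubiquitin ligase that marks Toll-like receptors for degradation, was lower in all 15 animals (-0.45, SE 0.08, adjusted p 2.344e-05) and was already down on day 3 (-0.26, SE 0.08, adjusted p 0.01743). CD180, a receptor homologue that restrains TLR4 signalling, was down (-0.39, SE 0.11, adjusted p 0.003647), and so was IRAK3, a kinase-inactive member of the IRAK family (-0.83, SE 0.25, adjusted p 0.006557, 11 animals).

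**Figure D4:**
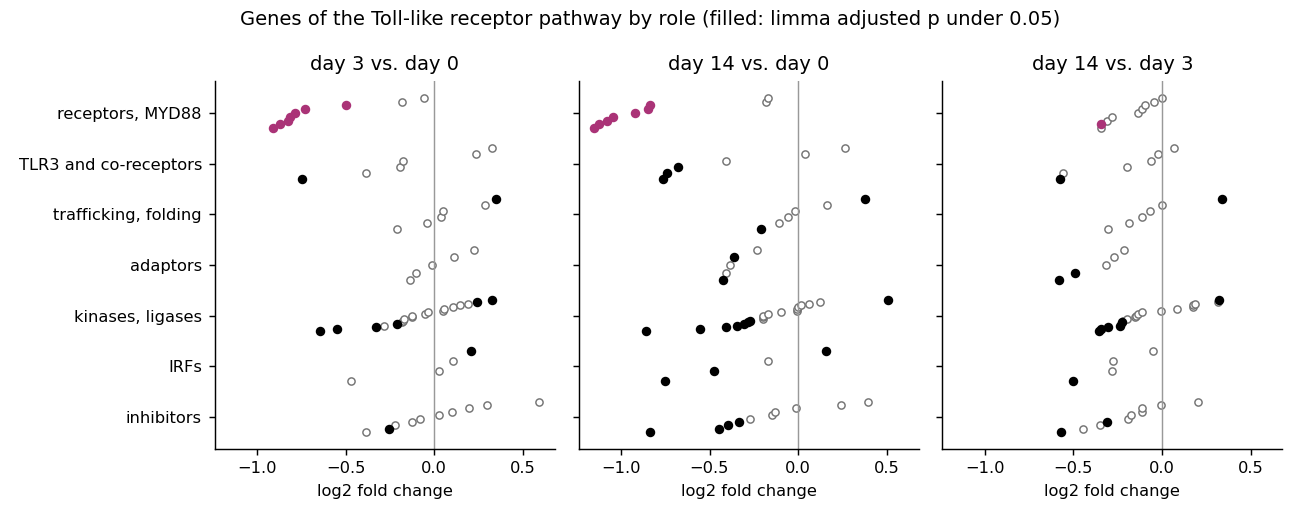
Log2 fold change of the 9 receptor and MYD88 rows and of the 50 tested pathway genes, grouped by role, in the 3 comparisons. Each point is a gene and filled points had an adjusted p under 0.05; on day 14 vs. day 0 the receptors reach -1.15, and the lowest pathway gene, PELI2, lies at -0.86.

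The lists for other blood cells gave other counts, to be read against the 19.6% of all genes called on day 3 and 44.3% on day 14. By direction the background was 10.3% up and 9.26% down on day 3, and 23.2% up and 21.1% down on day 14, and each list is short. Of 9 monocyte markers, 3 were up on day 3, while by day 14 1 had risen and 3 had fallen. Their summed level was lower than on day 0 in 7 animals on day 3 and in 8 on day 14. Of 10 B cell markers, none was called on day 3 and 4 were down on day 14. Of 6 T cell markers none was called on day 3 and 2 were up on day 14, and of 6 NK cell markers 5 were up on each day. Of 6 eosinophil and basophil markers with a row, none was called on day 3 and 3 were up on day 14. Erythroid markers were up, 5 of 7 on day 3 and 7 of 7 on day 14, with a median sum of 4435 scaled FPKM at baseline, 12956 by day 3 and 33119 by day 14. Platelet markers were up in 5 of 5 and 4 of 5. No marker with a row was at 0 in all libraries, although 5 had a mean under 1 FPKM (S100A12 of the neutrophil, CLEC10A of the monocyte, SCT of the plasmacytoid dendritic cell, HDC of the eosinophil and basophil and GP1BA of the platelet list), and their part in the receptor results was not tested.

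**Figure D5:**
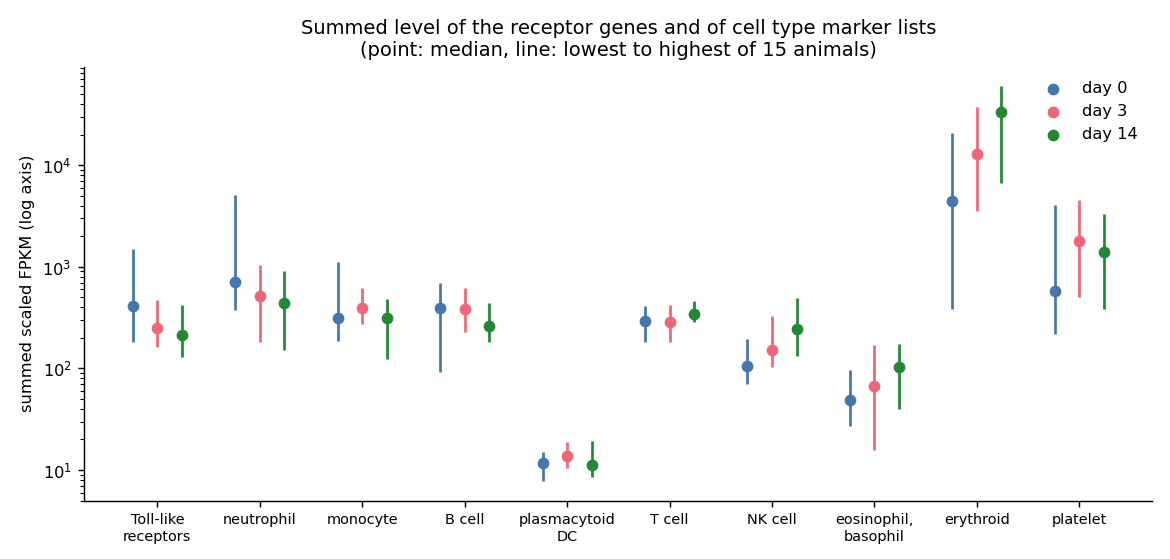
Summed scaled FPKM (log axis) of the 8 receptor genes and of 9 lists of cell type markers on day 0, day 3 and day 14. Points are medians and lines run from the lowest to the highest of the 15 animals; the receptor median went from 409 to 253 and 211, the neutrophil median from 711 to 517 and 438, and the erythroid median rose from 4435 to 33119.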

How the data were processed

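Whole blood RNA (ribosomal and globin RNA removed, stranded paired-end libraries) was aligned by the authors with STAR to Chlorocebus_sabeus 1.1 and counted per gene with HTSeq. The versions of both, the strand setting and the handling of fragments that fit several genes are not given in the sources used here; bcl2fastq 2.17 is named in the submitters' processing notes. The deposited unit is FPKM, which the authors made per library without scaling between libraries. All values (100%, within 0.02 fragments) in the 21922 rows above 0 in 20 or more samples were whole multiples of the value of 1 fragment, so whole fragments could be recovered.

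From these files, TMM factors (trims of 30% and 5%, range 0.537 to 1.50) were computed, and genes above 0.5 CPM in at least 3 samples were kept, 18753 in all. All 9 members passed this filter. log2(scaled FPKM + 0.1) was fitted with limma 3.58.1 in R 4.3.3, with day and animal as terms and a trended prior, on all 45 samples. Fold changes are on this scale, which understates those of low genes. Days follow each sample's labels; the series' design text names day 15 in place of day 14, and a methods sentence names day 7 in place of day 3 for the RNA tubes. The animal number is from the labels and pairs the samples: libraries of the same animal correlated in their deviations from the day means (mean r 0.328, against -0.0231 for different animals). The members, the pathway list and the marker lists were chosen with earlier results of these data known. Pathway genes named are, per list, the 3 with the smallest adjusted p among those called on day 14 vs. day 0, and the first one called against most of its list. Of 70 markers 66 had a row. The scripts were tested on simulated data. Alternatives tried were other scalings, pseudocounts and filters, no replicate block, the RNA integrity number given by the study as a covariate, limma-voom on whole fragments, and leaving out each animal. Sequences were not analysed here.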

Additional observations from a re-analysis of the deposited data

How the results depend on the processing

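The 7 receptors lower on day 14 vs. day 0 kept that call under every alternative run, at log2 fold changes between -1.57 (no scaling between libraries) and -0.67 (RNA integrity number with the animal block). Of the same 7 on day 3, only TLR4 lost its call, in the settings given with it above and without the 2 animals (15 and 8) whose day 14 libraries were scaled most (adjusted p 0.0620). Without scaling, where the median of all genes moved to -0.36 on day 14 vs. day 0 (1741 up and 9334 down, against 4345 and 3955 in the main analysis), the TLR8 fall grew to -1.26. On day 14 vs. day 3 it gave 7 genes called in place of 1. That count was 0 without the replicate block, with the RNA integrity number, and without animals 15 and 8, in each case by the loss of TLR10. The sign of TLR7 on day 14 vs. day 3, 0.00 in the main analysis, turned to -0.34 without scaling, -0.0236 without a filter, -0.0086 for genes of at least 1 FPKM and -0.0463 with the RNA integrity number. The count of pathway genes called on day 3 vs. day 0, 10 in the main analysis, was 5 without scaling, without the replicate block and without animals 15 and 8. On day 14 vs. day 0 it moved from 22 to 42 without scaling and to 10 with the RNA integrity number. On day 14 vs. day 3 it moved from 13 to 40 without scaling, 6 without the replicate block, 2 with the RNA integrity number and 6 without animals 15 and 8. All-gene calls also fell without the block and without these animals. For day 3 vs. day 0 the main fit called 1931 rises and 1736 falls. Without the block these were 1148 and 1185, and without the animals 1708 and 1386. For day 14 vs. day 3 the main fit called 2658 and 1848. These became 1595 and 946 without the block, and 1361 and 1292 without the animals. Those without scaling and with the RNA integrity number are given above. The causes were not tested.

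With each animal left out in turn, the members called ranged from 6 to 7 on day 3 vs. day 0, from 7 to 8 on day 14 vs. day 0 and from 0 to 1 on day 14 vs. day 3. The pathway genes called ranged from 7 to 12, from 19 to 25 and from 6 to 18, with 8 on day 14 vs. day 3 without animal 2 and 6 without animal 8. Neighbours that differed in the order of levels ranged from 20 to 21. The sign of TLR7 on day 14 vs. day 3 turned without animals 1, 5, 6, 7, 9, 11 or 13 (-0.0836 to 0.0520 over all animals), and that of MYD88 on day 3 vs. day 0 without animal 7 or 11 (-0.123 to 0.0112). Depth limits TLR7 most, at 30 fragments in its lowest library.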
